A study of Mus musculus with 12 samples.

Results

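Aminoacyl-tRNA synthetases are the enzymes that join each amino acid to its tRNA. Their genes were followed here in mouse leukemia cells with and without Tet2, over 8 h of blocked transcription. The 36 genes were taken by symbol from a fixed list of synthetases, with at least 1 TPM (the share of a library's RNA that a gene takes, per length of its transcript) in at least 2 of the 12 libraries required. All 36 met that minimum, out of 24589 genes in the table and 11152 genes that met it. They form 20 cytosolic genes and 16 mitochondrial genes, the mitochondrial symbols ending in 2. Kars and Gars, counted with the cytosolic genes, each encode the enzyme of both compartments.

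A synthetase activates its amino acid with ATP and passes it to the matching tRNA, so that the ribosome can read each codon with the right residue. Cells keep separate sets for the cytosol and for mitochondria, and nuclear genes encode both sets. Several cytosolic synthetases sit together on the scaffold proteins Aimp1, Aimp2 and Eef1e1 in the multisynthetase complex, and many cytosolic synthetase genes are known targets of ATF4, the transcription factor of the amino acid response.

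All groups were NRAS/AE9a acute myeloid leukemia cells, which by their name carry NRAS and the AML1-ETO9a fusion, grown with SCF, IL-3, IL-6, G418 and puromycin. They were Tet2 knockout (KO) cells at 0, 4 and 8 h of actinomycin D, set against wild-type (WT) cells at 0, 4 and 8 h of actinomycin D. The dose, 5 µg/ml, is also named for the 0 h libraries. Each of the 6 groups had 2 libraries, and the labels name 1 cell line with no second clone of either genotype, so genotype and clone cannot be told apart. TET2 oxidises 5-methylcytosine, and the series asks how it acts on mRNA in leukemia. Actinomycin D blocks transcription, so that levels at 4 and 8 h reflect which transcripts remain.

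Sequencing depth is unknown, because TPM are shares of a library that sum to 1e+06, and no counting interval can be given. A transcript lost more slowly than the others gains TPM even when its amount falls. No label states that the libraries of a group were separate cultures, so the p-values below describe the spread between the libraries at hand, which may be technical. Tet2 itself had 10.2 and 10.2 TPM in KO cells at 0 h and 13.1 and 16.0 TPM in WT cells at 0 h (log2 difference -0.47 ± 0.13 SE, limma adjusted p = 0.0167). A gene-level TPM does not show a deletion within the gene, so this is a weak check of the labels. All 19 listed myeloid markers were measured, with a summed level at 0 h of 12405 to 12721 TPM in KO cells and 27410 to 30708 TPM in WT cells. Lyz2 (lysozyme) made up most of that sum, with 8811 and 8629 TPM in KO cells and 21359 and 24118 TPM in WT cells at 0 h. Of the 19 markers 13 were lower and 4 higher in KO cells at 0 h. Markers of less mature myeloid cells went both ways. Mpo (2.16 ± 0.12) and Cd34 (0.83 ± 0.08) were higher, whereas Kit (-0.81 ± 0.13), Elane (-1.67 ± 0.12) and Prtn3 (-0.46 ± 0.06) were lower. Of 12 T and NK cell markers 1 passed the minimum, of 8 B cell markers 0, of 7 erythroid markers 1 and of 10 stromal or endothelial markers 4. The summed T and NK cell markers were at 19.9 to 29.7 TPM in KO cells and 7.31 to 12.5 TPM in WT cells at 0 h, and Nkg7, the 1 that passed, was higher in KO cells by 1.28 at 0 h, 1.74 at 4 h and 1.93 at 8 h. The stromal or endothelial sum was 171 to 173 TPM in KO cells and 143 to 171 TPM in WT cells at 0 h. Pecam1 made up most of it, with 157.7 and 159.4 TPM in KO cells and 130 and 157.2 TPM in WT cells at 0 h. Of the 4 tested markers 2 were higher in KO cells at 0 h and 3 at 8 h. Whether other cell types or the maturity of the myeloid cells have a part in the differences below was not tested, and in bulk RNA fewer cells of a type and less RNA per cell cannot be told apart.

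Cytosolic synthetases were abundant and even in level, and mitochondrial ones were mostly low. At 0 h the cytosolic means ran from 28.7 TPM for Cars (cysteinyl-tRNA synthetase) to 161 TPM for Farsa (the alpha subunit of the phenylalanyl enzyme) in KO cells, and from 27.5 TPM for Cars to 139 TPM for Dars (aspartyl) in WT cells. Mitochondrial means ran from 2.48 TPM for Ears2 (glutamyl) to 167 TPM for Lars2 (leucyl) in KO cells, and from 1.68 to 157 TPM for those genes in WT cells. After Lars2 the next mitochondrial gene was Iars2 (isoleucyl), at 50.9 TPM in KO cells and 42.7 TPM in WT cells. Ears2 reached 1 TPM in 5 of the 12 libraries, Pars2 (prolyl) in 4, Nars2 (asparaginyl) in 9 and Wars2 (tryptophanyl) in 10, and the other 32 genes reached it in all 12. Pars2 reached 1 TPM only at 0 h and Ears2 chiefly there, so their place among the tested genes rests on the time at which they were high.

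**Figure D1:**
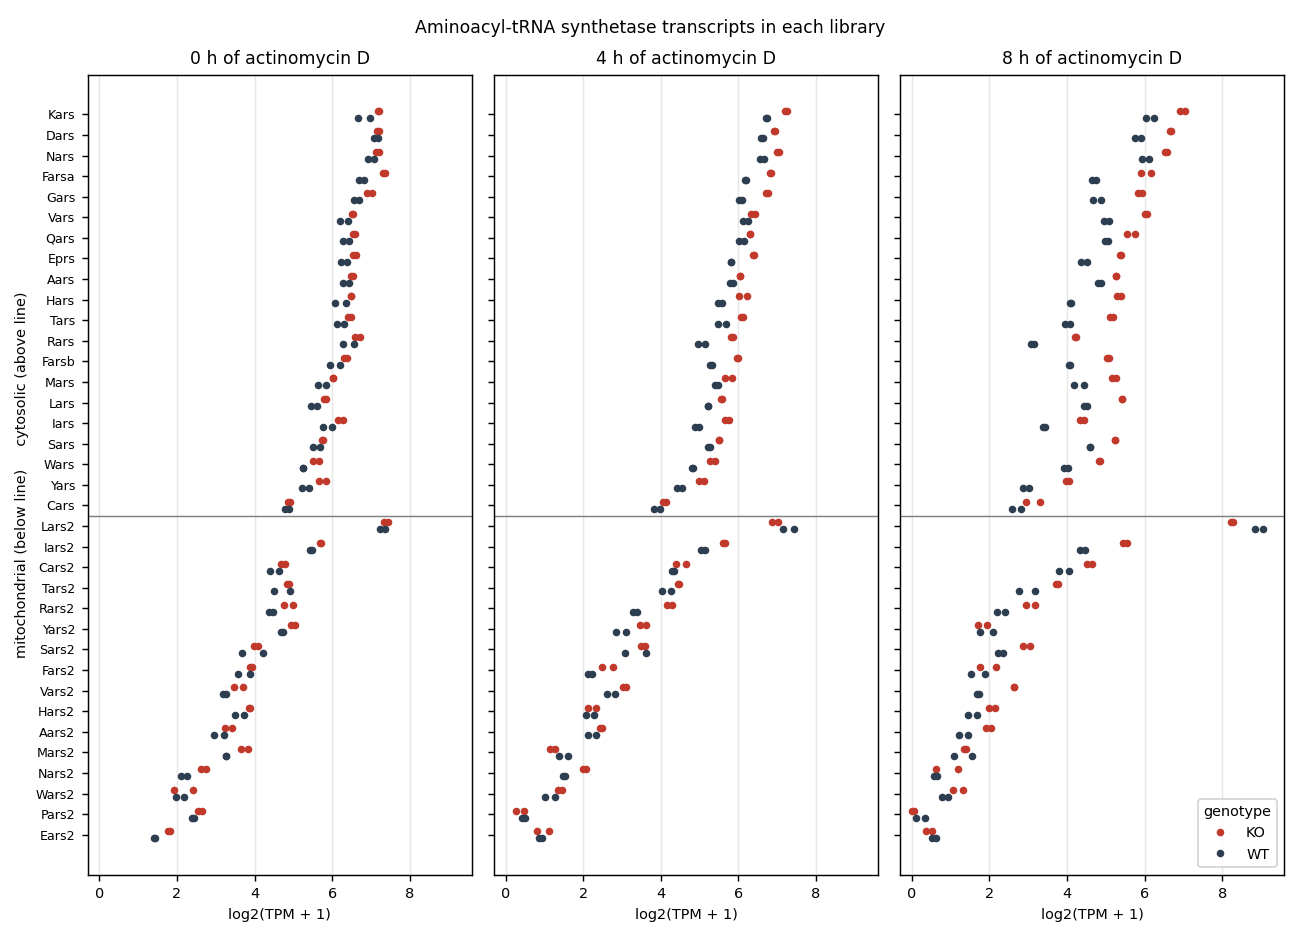
Level of each synthetase gene, as log2(TPM + 1), in each of the 12 libraries at 0, 4 and 8 h, KO points above WT points in each row, cytosolic genes above the line and mitochondrial genes below it. At 8 h both KO points lie above both WT points for 20 of 20 cytosolic and 9 of 16 mitochondrial genes, as for 50.2% of all tested genes. Lars2 lies lower in KO cells.

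The 0 h libraries show whether the genotypes differed before transcripts were lost. Cytosolic synthetases were modestly higher in KO cells: 9 of 20 were higher and 0 lower, when 14.3% of all tested genes were higher and 11.5% lower. Their median log2 difference was 0.27, and that of all tested genes was 0.06. Of the 16 mitochondrial genes 2 were higher, Rars2 and Iars2, and 0 lower, with a median of 0.25. All 36 estimates were above 0, and 34 of them exceeded the median of all tested genes, as 5576 of 11152 tested genes did. Both KO libraries lay above both WT libraries for 18 of 20 cytosolic and 12 of 16 mitochondrial genes, as they did for 37.7% of all tested genes.

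Farsa showed the largest difference at 0 h, with 157.6 and 163.7 TPM in KO cells against 101.7 and 111.8 TPM in WT cells (0.59 ± 0.09, adjusted p = 0.000456). The groups lay far apart, and the call held under all 17 alternative settings and left-out libraries, with adjusted p of at most 0.00763. Its partner Farsb, the beta subunit of the same enzyme, had 81.8 and 77.5 TPM in KO cells and 60.2 and 71.9 TPM in WT cells (0.27 ± 0.09, adjusted p = 0.0437). Yars, the tyrosyl enzyme, had 56.1 and 49.9 TPM in KO cells and 36.4 and 40.9 TPM in WT cells (0.44 ± 0.11, adjusted p = 0.00821). The 2 KO values again lay above both WT values. Kars, the lysyl enzyme, had 146 and 145 TPM in KO cells and 100.1 and 124 TPM in WT cells (0.38 ± 0.10, adjusted p = 0.0136). Rars2, the mitochondrial arginyl enzyme, had 30.6 and 25.9 TPM in KO cells and 21.1 and 19.7 TPM in WT cells (0.45 ± 0.13, adjusted p = 0.0247). Gars (glycyl) and Wars (tryptophanyl) were higher by 0.34 ± 0.09 and 0.33 ± 0.09, with adjusted p of 0.0147 and 0.0145.

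The 0 h count depends on single libraries. The cytosolic count was 1 without KO replicate 1, 4 without KO replicate 2, 2 without WT replicate 1 and 15 without WT replicate 2, all at 0 h. In WT replicate 1 at 0 h, 29 of the 36 synthetases and 82.7% of tested genes were lower than in WT replicate 2, and the 10 most abundant genes held 22.0% of TPM, against 17.8% in WT replicate 2 and 13.4% in each KO library. Rars2 had an adjusted p of 0.229 without KO replicate 1, and Kars, Yars and Gars had 0.11, 0.0587 and 0.0889 without WT replicate 1, and Wars had 0.171 without KO replicate 1. The mitochondrial count was 0 without WT replicate 1, WT replicate 2 or KO replicate 1, and 1 without KO replicate 2 at 0 h or any one 4 h library.

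Among the promoters searched, those of 5 synthetases hold the C/EBP-ATF response element. Through this sequence ATF4 and its partners are known to act in the amino acid response. Whether it has a part in the differences between the genotypes was not tested. Promoters of RefSeq (GRCm38.p6, 250 bases before to 50 after the start) were searched for 27 of the 36 genes, 13 of them cytosolic. Hars, Hars2, Lars and Nars were among the genes left out of the search. Whether the genes left out hold the element is not known, so the counts below cover only the promoters searched. The letters TGATGNAA were searched on both strands. They were present in 5 of 13 cytosolic promoters, in 0 of 15 mitochondrial promoters, in 3.97% of all 32851 promoters and in 2.31% of the 11010 promoters of tested genes. The stretches below run 5′ to 3′ on the strand of the gene, from 30 bases before the element to 10 after it, with the element in capitals. Aars holds it in 2 places. The Aars stretch is chr8:111033700-111033868 (plus strand), that of Gars chr6:55037941-55037988 (plus), that of Iars chr13:49682107-49682154 (plus), that of Tars chr15:11399656-11399703 (minus) and that of Yars chr4:129189876-129189923 (plus).
Aars: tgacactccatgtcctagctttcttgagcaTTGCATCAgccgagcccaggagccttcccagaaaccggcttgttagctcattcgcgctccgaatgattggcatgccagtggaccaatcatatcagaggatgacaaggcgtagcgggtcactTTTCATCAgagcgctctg
Gars: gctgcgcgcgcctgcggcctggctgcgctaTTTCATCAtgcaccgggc
Iars: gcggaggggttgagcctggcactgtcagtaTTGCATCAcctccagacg
Tars: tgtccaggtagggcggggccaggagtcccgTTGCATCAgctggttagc
Yars: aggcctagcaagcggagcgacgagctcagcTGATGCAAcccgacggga
The element reads TGATGCAA in the gene's direction in Yars and lies on the opposite strand in the other 4. A match is a description of the letters and not evidence that a factor binds there.

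After actinomycin D the cytosolic synthetases lost share slowly up to 4 h and more quickly afterwards, and WT cells lost more than KO cells. The median cytosolic gene kept 82.6% of its 0 h TPM at 4 h and 45.7% at 8 h in KO cells, against 69.2% at 4 h and 30.3% at 8 h in WT cells. The median mitochondrial gene kept 53.7% and 29.4% in KO cells and 50.3% and 22.8% in WT cells. For all tested genes the medians were 55.3% and 36.2% in KO cells and 50.1% and 29.1% in WT cells. At 4 h all 20 cytosolic genes in KO cells and 19 of 20 in WT cells lay above the median of all tested genes, and at 8 h 16 of 20 and 10 of 20 did. Of the mitochondrial genes 8 of 16 lay above it at 4 h in each genotype, and at 8 h 6 of 16 in KO cells and 4 of 16 in WT cells.

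**Figure D2:**
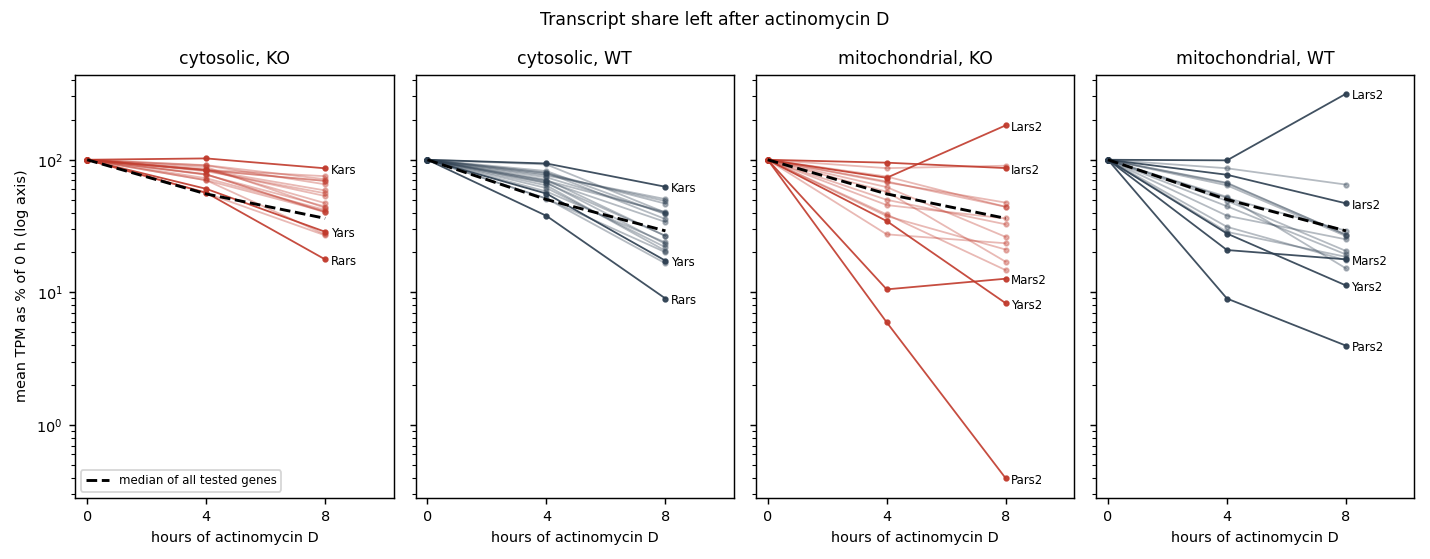
Mean TPM of each synthetase gene as a percent of its 0 h mean (log axis) against hours of actinomycin D, a line per gene, with the median of all tested genes dashed. At 8 h cytosolic lines run from Rars (17.7% in KO and 8.99% in WT cells) to Kars (86.2% and 62.6%). Mitochondrial lines run from Pars2 (0.396% in KO and 3.97% in WT cells) to Lars2 (182% and 315%).

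In tests of TPM share, 16 of 20 cytosolic genes were lower at 4 h than at 0 h in KO cells and 18 of 20 in WT cells, with 0 higher, but with median-ratio scaling 17 were higher and 0 lower in KO cells and 16 higher and 1 lower in WT cells. On the TPM scale 4.88% of all tested genes were higher and 68.0% lower in KO cells, and 6.77% higher and 71.0% lower in WT cells. With median-ratio scaling 7987 of 11152 tested genes passed the threshold in KO cells and 8006 in WT cells, both directions together. That scaling sets the typical gene to no change: the median of all tested genes was 0.05 in KO and 0.01 in WT cells with it, and -0.70 in KO and -0.81 in WT cells without it. The cytosolic median was -0.27 in KO and -0.52 in WT cells on the TPM scale. Without KO 0 h replicate 1 the KO count was 9, and without KO 4 h replicate 2 it was 10. Mitochondrial genes were lower at 4 h in 14 of 16 in each genotype on the TPM scale, and 5 were higher and 5 lower in each with median-ratio scaling. Their medians were -0.72 in KO and -0.76 in WT cells, near those of all genes.

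At 8 h 19 of 20 cytosolic genes were lower in KO cells and 20 of 20 in WT cells on the TPM scale, whereas median-ratio scaling gave 13 higher and 4 lower in KO cells and 10 higher and 10 lower in WT cells. In KO cells 9.54% of all tested genes were higher and 75.4% lower on the TPM scale, and in WT cells 8.48% higher and 80.2% lower. With median-ratio scaling 8856 of 11152 tested genes passed the threshold in KO cells and 8789 in WT cells, both directions together. The cytosolic medians were -1.11 in KO and -1.69 in WT cells, and those of all tested genes -1.16 and -1.40, or -0.03 and -0.07 after scaling. Of the mitochondrial genes 14 of 16 were lower and 1 higher in KO cells and 15 lower and 1 higher in WT cells, and with scaling 8 were lower and 4 higher in KO cells and 8 lower and 3 higher in WT cells. The gene that was higher on the TPM scale was Lars2 in both genotypes.

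Kars kept the most among cytosolic genes. It had 146 and 145 TPM at 0 h, 152 and 146 TPM at 4 h and 120 and 131 TPM at 8 h in KO cells, against 100.1 and 124 TPM, 106 and 104 TPM, and 65.0 and 75.3 TPM in WT cells. At 8 h it stood at 86.2% of its 0 h level in KO cells and 62.6% in WT cells. Its change to 8 h was -0.21 ± 0.10 (adjusted p = 0.0633) in KO cells and -0.66 ± 0.10 (adjusted p = 3.6e-05) in WT cells, and 1.20 and 1.01 with median-ratio scaling. Gars and Wars likewise turned sign with scaling, at -1.07 and -0.75 without it and 0.34 and 0.64 with it in KO cells at 8 h. In WT cells at 8 h Wars was at -1.29 without scaling and 0.33 with it, whereas Gars, at -1.87 without it, stayed below 0.

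Rars, the cytosolic arginyl enzyme, lost the most. It had 103.5 and 95.01 TPM at 0 h, 57.4 and 54.6 TPM at 4 h and 17.3 and 17.9 TPM at 8 h in KO cells, against 77.1 and 93.0 TPM, 33.9 and 30.3 TPM, and 7.45 and 7.84 TPM in WT cells. KO values lay above WT values at each time, and the ratio of the KO mean to the WT mean was 1.17 at 0 h, 1.74 at 4 h and 2.30 at 8 h. Its change to 8 h was -2.43 ± 0.10 in KO cells and -3.31 ± 0.10 in WT cells, with adjusted p of 4.7e-10 and 4.6e-11. In WT cells at 8 h the next largest cytosolic falls in TPM share were those of Iars (-2.47 ± 0.10), Yars (-2.36 ± 0.11) and Tars (-2.20 ± 0.10), the isoleucyl, tyrosyl and threonyl enzymes.

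At 4 h the changes of mitochondrial synthetases spread more widely, from -2.54 to -0.07 in KO cells, against -0.81 to 0.03 for cytosolic genes. In WT cells they ran from -1.93 to -0.02, against -1.37 to -0.08. At 8 h in WT cells the mitochondrial spread apart from Lars2 was no wider. It ran from -2.78 (Yars2) to -0.59 (Cars2), against -3.31 (Rars) to -0.66 (Kars). Mars2, the methionyl enzyme, had 13.3 and 11.5 TPM at 0 h, 1.19 and 1.42 TPM at 4 h and 1.53 and 1.61 TPM at 8 h in KO cells, against 8.66 and 8.64 TPM, 2.03 and 1.58 TPM, and 1.95 and 1.12 TPM in WT cells. Most of its share was gone by 4 h, when 10.5% was left in KO cells and 20.9% in WT cells. Pars2 had 4.79 and 5.30 TPM at 0 h, 0.40 and 0.20 TPM at 4 h and 0 and 0.04 TPM at 8 h in KO cells, against 4.20 and 4.37 TPM, 0.35 and 0.42 TPM, and 0.07 and 0.27 TPM in WT cells. The changes to 4 h were -2.54 ± 0.17 for Mars2 and -2.22 ± 0.15 for Pars2 in KO cells, and -1.79 ± 0.17 and -1.93 ± 0.15 in WT cells. The pseudocount of 1 TPM makes each such value smaller than the fall in TPM itself. Hars2 (histidyl), Yars2 (tyrosyl) and Fars2 (phenylalanyl) followed at 4 h, with -1.63 ± 0.15, -1.45 ± 0.15 and -1.26 ± 0.18 in KO cells and -1.44 ± 0.15, -1.72 ± 0.15 and -1.55 ± 0.18 in WT cells. At 8 h Yars2 had the largest mitochondrial change in both genotypes, -3.16 ± 0.15 in KO and -2.78 ± 0.15 in WT cells.

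Iars2 and Cars2 stood at the other end. Iars2 had 50.7 and 51.1 TPM at 0 h, 49.4 and 47.4 TPM at 4 h and 45.5 and 42.7 TPM at 8 h in KO cells, against 41.8 and 43.6 TPM, 34.0 and 31.9 TPM, and 19.0 and 21.1 TPM in WT cells. It stayed nearly level in KO cells, and WT cells kept less of it at both later times. Cars2, the mitochondrial cysteinyl enzyme, kept 90.2% at 8 h in KO cells (-0.14 ± 0.13, adjusted p = 0.302) and 65.0% in WT cells (-0.59 ± 0.13, adjusted p = 0.000724). The last 2034 nt of the Iars2 transcript overlap Rab3gap2 on the opposite strand and 217 nt of Cars2 overlap Naxd, and the strand setting used in counting is not given, so both values are uncertain.

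Lars2 was the only synthetase that was higher at 8 h than at 0 h on the TPM scale. It had 161 and 172 TPM at 0 h, 129 and 115 TPM at 4 h and 306 and 299 TPM at 8 h in KO cells, against 149.8 and 164 TPM, 139.8 and 170.5 TPM, and 528 and 458 TPM in WT cells. Its 8 h libraries lay above all 0 h libraries in both genotypes, by 0.86 ± 0.10 (adjusted p = 4.1e-06) in KO cells and 1.64 ± 0.10 (adjusted p = 6.6e-09) in WT cells, and by 2.28 and 3.33 with median-ratio scaling. At 4 h the TPM changes were -0.45 ± 0.10 in KO and -0.02 ± 0.10 in WT cells, and with scaling 0.47 and 0.98. The 3′ UTR of its annotated transcript shares 72 nt at 98.6% identity with Gm15564, an antisense gene with no row in the table, so reads of another RNA could be counted as Lars2 and its values are uncertain. The ribosomal RNA precursor Rn45s changed by 0.37 ± 0.10 (adjusted p = 0.00512) in KO cells and 0.14 ± 0.10 (adjusted p = 0.209) in WT cells at 8 h. Rpph1, the RNA of RNase P, rose by 3.39 ± 0.20 in KO cells and 5.09 ± 0.20 in WT cells to 8 h, with a difference between the changes of -1.70 ± 0.29 (adjusted p = 0.00217). Malat1, a long nuclear RNA, rose by 1.32 ± 0.08 in KO cells and 1.13 ± 0.08 in WT cells. A part of other RNA in the Lars2 values was not tested.

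Because of its level, Lars2 dominates any mitochondrial total. It made up 38.7% to 40.3% of the summed mitochondrial synthetase TPM in KO cells and 42.4% to 42.9% in WT cells at 0 h, and 71.9% to 73.1% in KO cells and 87.3% to 89.8% in WT cells at 8 h. The other 15 mitochondrial genes summed to 256 and 254.5 TPM at 0 h, 156 and 161 TPM at 4 h and 119 and 110.0 TPM at 8 h in KO cells. In WT cells their sums were 199 and 222 TPM, 117 and 116 TPM, and 60.1 and 66.7 TPM. The 20 cytosolic genes summed to 1837 and 1787 TPM at 0 h, 1480.4 and 1437 TPM at 4 h and 958 and 928 TPM at 8 h in KO cells. In WT cells the sums were 1409 and 1599.7 TPM, 1068 and 1039 TPM, and 489.8 and 522 TPM. Both sums without Lars2 were higher in the 2 KO libraries than in the 2 WT libraries at every time.

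**Figure D3:**
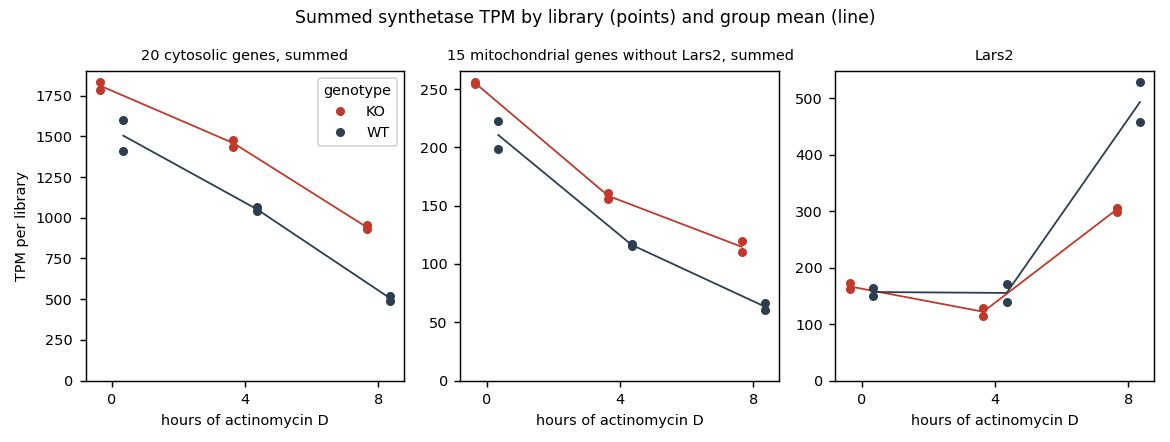
Summed TPM of the 20 cytosolic genes, of 15 mitochondrial genes without Lars2, and of Lars2 alone, against hours of actinomycin D, with a point per library and a line through the group means. KO sums lie above WT sums at each time in the left and middle panels, and Lars2 at 8 h is lower in KO than in WT cells.

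The difference between the KO change and the WT change compares how much TPM share synthetase transcripts kept in each genotype. It is relative to the other transcripts of a library and is not a rate of loss. To 8 h the cytosolic set kept more of its TPM share in KO cells. Of its 20 genes 18 had a positive difference past the threshold and 0 a negative one. Of all tested genes 17.3% had a positive and 2.63% a negative one. The cytosolic median difference was 0.66 log2 units, and the median of all tested genes was 0.18. All 20 cytosolic values exceeded that median. The 2 genes not called were Aars (alanyl, 0.29 ± 0.11, adjusted p = 0.0949) and Cars (0.35 ± 0.19, adjusted p = 0.214). Among mitochondrial genes 2 were positive, Iars2 and Vars2, and 1 was negative, Lars2, with a median of 0.24. Of the 16 mitochondrial estimates 10 were above 0, and 9 were above the median of all tested genes. Most mitochondrial estimates had larger standard errors than the cytosolic ones, so the counts of the classes are not a test between them. Tars2 (0.61 ± 0.22) and Sars2 (0.58 ± 0.27) were not called, whereas Wars (0.54 ± 0.12) was. With median-ratio scaling 13 cytosolic genes were positive and 0 negative, and of the mitochondrial genes 1 was positive and 1 negative. Under that scaling 1878 of 11152 tested genes passed the threshold, both directions together.

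Hars, the cytosolic histidyl enzyme, had the largest difference. It had 88.5 and 89.2 TPM at 0 h, 73.4 and 63.5 TPM at 4 h and 41.1 and 37.7 TPM at 8 h in KO cells, against 65.6 and 80.9 TPM, 46.4 and 43.3 TPM, and 15.9 and 16.2 TPM in WT cells. KO values were above WT values at each time, and the ratio of the KO mean to the WT mean was 1.21 at 0 h, 1.53 at 4 h and 2.46 at 8 h. The difference of its changes was 0.96 ± 0.15 (adjusted p = 0.00148). Hars2, the mitochondrial histidyl gene, is transcribed from the opposite strand with an annotated 5′ end 197 bases from that of Hars, and had a difference of 0.24 ± 0.21 (adjusted p = 0.456). The annotated 5′ ends of the pair overlap, and whether the changes of the 2 genes differ from each other was not tested.

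Tars followed with 0.91 ± 0.14 (adjusted p = 0.00131), and had 83.9 and 88.3 TPM at 0 h and 35.6 and 33.4 TPM at 8 h in KO cells and 68.1 and 77.8 TPM at 0 h and 15.8 and 14.3 TPM at 8 h in WT cells. Rars had 0.88 ± 0.14 (adjusted p = 0.00194) and Vars, the valyl enzyme, 0.81 ± 0.12 (adjusted p = 0.00136). Vars had 90.8 and 90.1 TPM at 0 h and 63.8 and 65.3 TPM at 8 h in KO cells, against 72.9 and 83.6 TPM at 0 h and 32.8 and 29.8 TPM at 8 h in WT cells. Iars2, at 0.85 ± 0.12 (adjusted p = 0.00086), was the mitochondrial gene nearest to these values. Lars2 had the opposite sign, -0.79 ± 0.14 (adjusted p = 0.00319). Hars, Tars, Rars, Vars, Iars2 and Lars2 were called under all 17 alternatives.

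**Figure D4:**
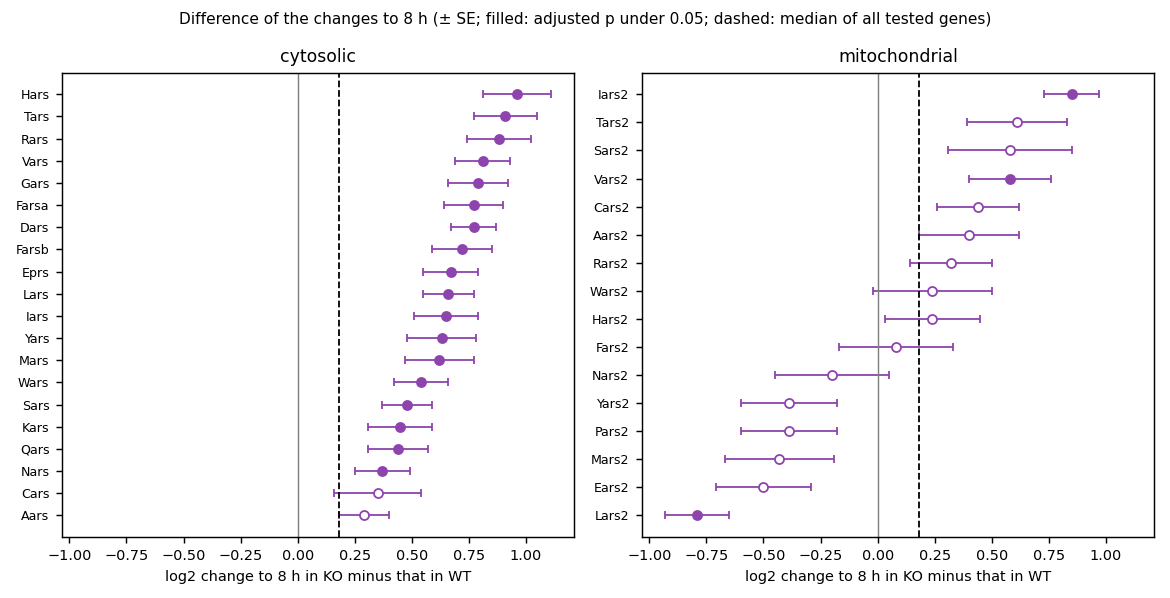
Difference between genotypes in the log2(TPM + 1) change to 8 h, KO change minus WT change, with its standard error, for 20 cytosolic genes (left) and 16 mitochondrial genes (right). All cytosolic points lie right of the dashed median of all tested genes (0.18), 18 of them past the threshold (13 with median-ratio scaling), and mitochondrial points run from -0.79 to 0.85. Of all tested genes 17.3% had a positive difference past the threshold. With scaling 1878 of 11152 passed it in either direction.

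Several calls did not hold in every alternative. Nars (asparaginyl, 0.37 ± 0.12, adjusted p = 0.046) lost its call in 14 of 17 alternatives, Kars (0.45 ± 0.14, adjusted p = 0.0422) in 13, Qars (glutaminyl, 0.44 ± 0.13, adjusted p = 0.0296) in 7 and Mars (methionyl, 0.62 ± 0.15, adjusted p = 0.0158) in 5. Their highest adjusted p were 0.322, 0.165, 0.199 and 0.0624. Vars2 (0.58 ± 0.18, adjusted p = 0.046) lost its call in 15 of 17, with a highest adjusted p of 0.209. The cytosolic count was 11 without KO 0 h replicate 2 and between that and 19 without each other library. Without KO 0 h replicate 2 Sars (seryl), Wars and Yars also missed the threshold, with adjusted p of 0.0572, 0.0655 and 0.0705. The mitochondrial count of positive genes was 4 without WT 0 h replicate 1 and 1 without each other library except WT 8 h replicate 2.

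To 4 h no synthetase had a difference past the threshold in limma. Of all tested genes 0.0538% had a positive and 0.296% a negative difference. At an unadjusted p under 0.05 there were 6 positive and 0 negative cytosolic genes and 2 positive and 2 negative mitochondrial genes. The share of all tested genes at that looser threshold was not counted, so these counts have no background to be read against. With median-ratio scaling 1 cytosolic gene passed the adjusted threshold, as did 160 of 11152 tested genes in either direction. Without scaling the smallest adjusted p of a synthetase was 0.119, for Rars (0.56 ± 0.14). The cytosolic median was 0.15 and the mitochondrial 0.01, beside 0.05 for all tested genes.

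The level differences between the genotypes at 4 and 8 h share their libraries with these changes and are given beside them, not as separate support. At 4 h 17 of 20 cytosolic genes were higher in KO cells and 0 lower (median 0.50), and of the mitochondrial genes 4 were higher, namely Rars2, Iars2, Yars2 and Nars2, and 1 lower, Lars2. Of all tested genes 24.9% were higher and 13.7% lower. At 8 h 20 of 20 cytosolic genes were higher (median 0.94) and 8 mitochondrial genes were higher and 1 lower (median 0.42), with 37.3% of all tested genes higher and 12.1% lower. The all-gene medians were 0.10 at 4 h and 0.20 at 8 h. Farsa led at 8 h with 71.2 and 59.5 TPM in KO cells against 25.7 and 23.8 TPM in WT cells (1.36 ± 0.09, adjusted p = 2.1e-07). Hars, Tars, Gars and Rars followed at 1.24, 1.15, 1.13 and 1.10. At 4 h Rars2 led with 0.88 ± 0.13 (adjusted p = 0.000295), and its KO libraries (16.7 and 18.4 TPM) lay well above its WT libraries (9.43 and 8.76 TPM). Lars2 was lower in KO cells by -0.34 ± 0.10 at 4 h (adjusted p = 0.0188, and 0.198 without WT replicate 2 or 0.143 without KO replicate 2 at 4 h) and by -0.70 ± 0.10 at 8 h. At 4 h the mitochondrial count of higher genes was 2 without WT replicate 1 or KO replicate 1 of that time. Cars, the lowest cytosolic gene, was higher at 8 h by 0.42 ± 0.13 (adjusted p = 0.0207, but 0.137 without WT 8 h replicate 2 and 0.204 without KO 8 h replicate 1). Ears2, with a mean of 1.14 TPM over the 12 libraries, had 0.30 and 0.43 TPM in KO cells and 0.43 and 0.55 TPM in WT cells at 8 h, which overlap.

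Enzymes inside and outside the multisynthetase complex are given side by side, and the 2 sets were not tested against each other. The 8 enzymes of the complex (Dars, Eprs, Iars, Kars, Lars, Mars, Qars and Rars) had 8 positive differences to 8 h with a median of 0.66, and the 12 cytosolic genes outside it had 10 with a median of 0.67, beside 17.3% positive of all tested genes. Eprs, which joins both glutamate and proline to their tRNAs, had 0.67 ± 0.12 and Dars 0.77 ± 0.10. The scaffold genes Aimp1, Aimp2 and Eef1e1 had differences of 0.43 ± 0.15, -0.39 ± 0.31 and 0.27 ± 0.12, with adjusted p of 0.0593, 0.411 and 0.126. At 8 h they were at -2.58, -3.35 and -2.47 in KO cells and at -3.01, -2.97 and -2.75 in WT cells, all lower than 0 h on the TPM scale. Eef1e1 was higher in KO cells at 0 h, by 0.61 ± 0.08 (adjusted p = 0.000202). By fold of the active site, 11 of 19 class I genes were positive and 1 negative to 8 h, and 9 of 17 class II genes were positive and 0 negative, beside 17.3% positive and 2.63% negative of all tested genes. Eprs, whose glutamyl part is of class I and prolyl part of class II, was counted in class I only.

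The promoters shown above can be set beside these values. Gars, Iars, Tars and Yars, with 1 element each, had differences to 8 h of 0.79, 0.65, 0.91 and 0.63, and Aars, with 2 elements, had 0.29. The 8 cytosolic genes whose matched promoters lack it ranged from 0.44 (Qars) to 0.77 (Dars and Farsa). The ranges overlap.

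Among 21 partners of tRNA charging 8 had a positive and 0 a negative difference to 8 h, beside 17.3% and 2.63% of all tested genes, with a median of 0.45, against 0.18 for all tested genes. They include Eef1a1 (0.62 ± 0.10, adjusted p = 0.00138), which brings charged tRNA to the ribosome, its cofactor subunit Eef1g (0.50 ± 0.09), Tufm (0.63 ± 0.12), its mitochondrial counterpart, and Xpot (0.63 ± 0.12), which exports tRNA from the nucleus. At 0 h 10 were higher in KO cells and 0 lower, beside 14.3% and 11.5% of all tested genes, but the higher count was 5 without WT replicate 1, 4 without KO replicate 1 and 5 without KO replicate 2 of that time. Qrsl1, a subunit of the complex that makes glutaminyl-tRNA in mitochondria, was at -3.02 ± 0.16 at 8 h in KO cells.

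Of 28 genes of the amino acid response 9 had a positive and 4 a negative difference to 8 h, beside 17.3% and 2.63% of all tested genes. The positive ones with the smallest p were Shmt2 (0.99 ± 0.10), Slc7a5 (1.07 ± 0.13), Phgdh (0.94 ± 0.12) and Psat1 (0.84 ± 0.12), which serve one-carbon metabolism, amino acid uptake and serine synthesis, with adjusted p from 0.000237 to 0.000905. Asparagine synthetase, Asns, had 1.06 ± 0.17 (adjusted p = 0.00175). The negative ones were Ddit4 (-1.29 ± 0.20), Ddit3 (-0.87 ± 0.22), Chac1 (-0.82 ± 0.26) and Ppp1r15a (-0.61 ± 0.15), which are stress genes of the same response, and without KO 0 h replicate 1 the count of negative genes was 1. Atf4 itself had 0.22 ± 0.12 (adjusted p = 0.214). At 0 h 11 of the 28 were higher in KO cells and 3 lower, beside 14.3% and 11.5% of all tested genes, and without WT replicate 2, KO replicate 1 or KO replicate 2 of that time 0 were lower.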

How the data were processed

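RNA was sequenced from 12 libraries. Per the labels' protocols it was extracted with TRIzol, and the KAPA Stranded mRNA-Seq kit was used. STAR, RSEM and the mm10 build are named in the submitters' processing notes. Tool versions, gene annotation and strandedness setting were not given in the sources used here. The authors deposited TPM, relative to the total of each library, so depth is unknown. Of 24589 genes the 11152 that reached 1 TPM in 2 or more libraries were tested on log2(TPM + 1), a scale that understates changes of low genes. limma 3.58.1 in R 4.3.3 fitted 6 group means over 12 libraries with 6 residual degrees of freedom and a variance trend, for 9 contrasts. Adjusted p are Benjamini-Hochberg values over all tested genes (threshold 0.05), errors are SE, and the fit was tested on simulated data. Alternatives were median-ratio scaling, no filter, a pseudocount of 0.1, no trend, a replicate block and each library left out.

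Full statistics were given for up to 5 synthetases each way with the largest called change per contrast, for Wars, Gars, Kars and for the highest and lowest gene of each class, and other genes are named with values. Of the partner, scaffold and amino acid response lists, the counts and the 4 smallest p per contrast were taken, and Asns, Atf4 and the remaining negative response genes were added after their values were seen. The synthetases and the lists were chosen with earlier results of these data known. Promoters are RefSeq's (GRCm38.p6), and transcripts of GENCODE M21 were compared with blastn 2.17.0, called from Python 3.11.15. Protein signatures of the enzyme classes are not analysed here.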

Additional observations from a re-analysis of the deposited data

Results flagged for a closer look

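The change to 8 h differed between the genotypes, by the test of the difference itself, for 21 synthetases, and each value here is the log2 change in KO cells minus that in WT cells. Among cytosolic genes it was 0.96 for Hars, 0.91 for Tars, 0.88 for Rars, 0.81 for Vars, 0.79 for Gars, 0.77 for Dars and for Farsa, 0.72 for Farsb, 0.67 for Eprs, 0.66 for Lars, 0.65 for Iars and 0.63 for Yars. Smaller values were 0.62 for Mars, 0.54 for Wars, 0.48 for Sars, 0.45 for Kars, 0.44 for Qars and 0.37 for Nars. Among mitochondrial genes it was 0.85 for Iars2, 0.58 for Vars2 and -0.79 for Lars2. With 2 libraries per group no library could be singled out within a group.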

How the results depend on the processing

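Depth is unknown, groups have 2 libraries, and loss after actinomycin D is measured relative to other transcripts. Of 11152 tested genes, 7987 at 4 h and 8856 at 8 h in KO cells passed the threshold under median-ratio scaling, in either direction. In WT cells 8006 and 8789 did. That scaling removes the common fall. With it the KO 4 h against KO 0 h counts became 17 higher and 0 lower (cytosolic) and 5 higher and 5 lower (mitochondrial), those at 8 h 13 and 4, and 4 and 8, and in WT cells 16 and 1, and 5 and 5 at 4 h, and 10 and 10, and 3 and 8 at 8 h. It also gave 1 mitochondrial gene higher at 0 h, 1 cytosolic gene with a positive difference to 4 h and 1 mitochondrial gene with a positive difference to 8 h. Its log2 values with the opposite sign were, in KO cells at 4 h, Wars 0.65, Gars 0.69, Cars 0.08 and Lars2 0.47, in KO cells at 8 h Wars 0.64, Gars 0.34 and Kars 1.20, in WT cells at 4 h Wars 0.54, Gars 0.41, Kars 0.91, Cars 0.03, Lars2 0.98 and Ears2 0.02, and in WT cells at 8 h Wars 0.33 and Kars 1.01. The counts of KO against WT and of the difference to 8 h kept their direction under it.

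Mitochondrial genes higher in KO cells at 0 h numbered 1 with a pseudocount of 0.1 and 4 without the trend. The 1 mitochondrial gene lower in KO cells at 4 h was lost (0) with no filter and with no trend, and 1 had a positive difference to 8 h with no filter. The cause was not tested. With the replicate block, 1 mitochondrial gene was higher at 0 h and 1 had a positive difference to 8 h, and among the genes with full statistics Nars and Vars2 lost their calls. Same-numbered libraries did not deviate together (correlations of -0.08 to 0.05 over 15 pairs of groups). The labels do not say whether they were paired, and this check cannot show that they were not.

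Leaving out each library in turn, the lone library being assumed to vary like the others, gave these lowest and highest counts. Higher in KO cells at 0 h were 1 to 15 cytosolic and 0 to 3 mitochondrial genes, at 4 h 14 to 17 and 2 to 5, with 0 to 1 mitochondrial lower, and at 8 h 19 to 20 and 6 to 9. Lower at 4 h than at 0 h were 9 to 17 cytosolic and 11 to 14 mitochondrial genes in KO cells, and 16 to 19 and 12 to 14 in WT cells. Lower at 8 h in KO cells were 19 to 20 and 13 to 14. Positive differences to 8 h were 11 to 19 and 1 to 4.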

Other observations

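The number of exons, a feature chosen after the changes were seen, is set here beside the loss of the synthetases, and the 2 classes were not tested against each other. Across the 16 mitochondrial genes the exon count of the annotated transcript had a Spearman rho of 0.71 with the log2 change to 8 h in KO cells and 0.44 in WT cells. Across the 20 cytosolic genes rho was -0.05 in KO and -0.08 in WT cells, and across 10529 tested genes with a transcript -0.03 and -0.11. The length of the 3′ UTR had a rho of 0.13 in KO and 0.24 in WT cells across the mitochondrial genes, and of -0.37 in KO and -0.26 in WT cells across the cytosolic ones. Coding length had a rho of 0.51 in KO and 0.35 in WT cells across the mitochondrial genes, and transcript length 0.29 and 0.34. Across the cytosolic genes coding length had -0.09 and -0.12, and transcript length -0.15 and -0.15. These are descriptions across genes that share all 12 libraries, and low genes are compressed by the pseudocount. Mars2 has 1 exon, Pars2 2 and Yars2 5, and these were the genes with the largest mitochondrial falls in KO cells at 8 h. In WT cells at 8 h Rars2, with 20 exons, was at -2.12 and Hars2, with 13, at -2.05. Both fell more there than Mars2, at -1.95.

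Several other transcripts share sequence with a neighbour. The last 1326 nt of the Aars transcript lie within the annotated Exosc6 on the same strand, 250 nt of Farsb overlap Sgpp2 on the opposite strand, and 1656 nt of Iars match the pseudogene Gm4849 at 96.0% identity. In all 7 synthetases have at least 100 nt at 97% identity or more in another gene, and for 5 of them that gene has a row in the table.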
